A study of Mus musculus with 8 samples.

Results

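The 8 genes *Snai1*, *Snai2*, *Twist1*, *Zeb1*, *Zeb2*, *Vim*, *S100a4* and *S100a6*, commonly used to follow endothelial-to-mesenchymal transition (EndMT), were compared between mutant and wild-type brain endothelial cells (ECs). They were chosen by name, as 8 of the 49315 gene identifiers counted in each library, with no limit on their level. All 8 passed the filter on low counts and were among the 16887 genes tested. In EndMT an endothelial cell gives up part of its identity, loosens its junctions and takes on the cytoskeleton, matrix and motility of a mesenchymal cell. Snail (*Snai1*), Slug (*Snai2*), *Twist1*, *Zeb1* and *Zeb2* are transcription factors that bind short DNA motifs called E-boxes and, in epithelial cells, repress junction genes such as *Cdh1* (E-cadherin). Vimentin (*Vim*) is the intermediate filament protein of mesenchymal cells and also of normal endothelium, and *S100a4* and *S100a6* are small calcium-binding proteins, the first of them widely used as a fibroblast marker.

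Brain ECs of 4 mutant and 4 wild-type mouse pups were isolated at day 9 of life (P9) with magnetic beads that bind CD31, an endothelial surface protein, and poly(A) RNA of each pup was sequenced as 1 library. The mutant pups were R26GT-Map2k1-GFP/+;Tg-Cdh5CreER+/-. In these pups tamoxifen at day 1 (P1) lets Cre remove a stop cassette from the Rosa locus, after which ECs express constitutively active *Map2k1* K57N, a kinase that activates ERK, together with GFP. The wild-type pups received tamoxifen at the same age, and both strains had been backcrossed to C57BL/6J. The source tables describe the controls in 2 ways, as wild type and as carriers of the Cre transgene alone, so an effect of Cre itself cannot be told apart from that of the kinase. Recombination reaches part of the ECs, so a mutant library mixes recombined and unrecombined cells, and no control expressed unmutated *Map2k1* from the Rosa locus. Per the study's methods, each litter gave as many randomly drawn wild-type as mutant pups, and which litter each library came from is not given in the sources used here.

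Each library held between 24833373 and 34196955 counts on genes. *Map2k1* itself, counted from the endogenous gene and the transgene together, was 14619 ± 2851 normalized counts in the mutant and 1611 ± 116 in the wild-type libraries (mean ± SD, n = 4 each, as for all means below), and all 4 mutant libraries lay above all wild-type libraries. A normalized count is a read count scaled to the mean library size with TMM, a method that equalises libraries on genes that do not differ. Defining endothelial markers were abundant in both groups, at a summed 9052 ± 716 CPM, reads scaled to a common library total, for 10 markers in the mutant and 9935 ± 921 in the wild type (p = 0.143, exact two-sided permutation test). Of 11 lists of markers of other cells, 3 differed without overlap of the groups, which is the smallest p that 4 against 4 libraries allow (0.0286, or 0.114 adjusted over 12 lists). Summed oligodendrocyte markers were 35.2 ± 13.8 against 189 ± 74.4 CPM, red blood cell markers 211 ± 89.6 against 706 ± 197 CPM, and astrocyte markers 679.5 ± 64.0 against 407 ± 28.9 CPM in mutant and wild-type libraries. The astrocyte sum rested on *Gja1*, a connexin gene that ECs also use, at 19462 against 11160 normalized counts (log2 fold change 0.80, edgeR adjusted p = 0.000132), whereas *Aldh1l1* fell and the other 4 astrocyte markers did not pass the test, and as a mean of log2 CPM the astrocyte list differed by -0.32.

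Of the 8 EndMT genes, *Snai1*, *Zeb1*, *Vim* and *S100a6* rose in the mutant, *Snai2* fell, and *Twist1*, *Zeb2* and *S100a4* did not pass the test (edgeR's quasi-likelihood test, Benjamini-Hochberg adjusted p under 0.05). Among all genes tested 44.4% passed, 21.5% as higher and 22.9% as lower in the mutant, so 5 of 8 passing is to be read against a high background. With a further limit of a 2-fold change, *Vim* and *S100a6* rose and *Snai2* fell, where 14% of all genes passed, 5.9% as higher and 8.05% as lower. The libraries of the groups did not overlap for 4 of the 8 genes, against 42.5% of all genes tested. All mutant libraries lay above all wild-type libraries for 3 genes and below them for 1, where 20.6% and 21.9% of all genes did so. The median log2 fold change (mutant over wild type) of the 8 genes was 0.31, beside -0.02 for all genes tested, and single genes ran from -1.51 for *Snai2* to 4.42 for *S100a6*. The relatives *Snai1* and *Snai2* moved in opposite directions.

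**Figure D1:**
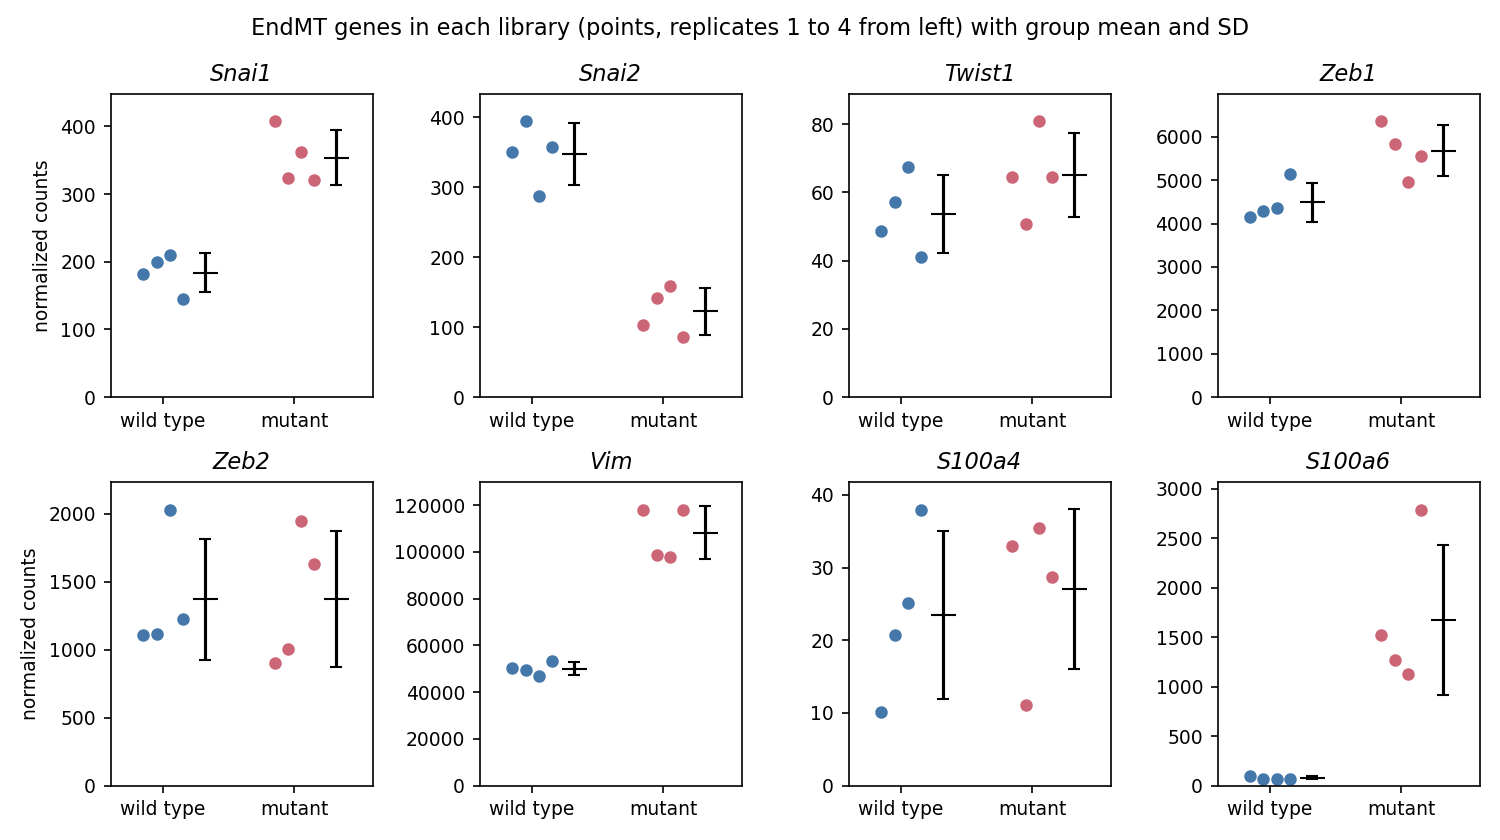
Normalized counts (y axis, from 0, own scale per gene) of the 8 EndMT genes in each wild-type (blue) and mutant (red) library, with the group mean and SD beside the points (n = 4). The groups are apart for Snai1, Snai2, Vim and S100a6 and overlap for Twist1, Zeb1, Zeb2 and S100a4.

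The stretches just upstream of *Snai1*, *S100a4* and *S100a6* are printed here because *Snai1* holds an E-box of the kind its own protein family binds, and because *S100a4* and *S100a6* lie close together on the same chromosome and responded differently. They are bases before the RefSeq start sites on the plus strand of GRCm38.p6, for *S100a6* only up to the start of its gene model in the files, which begins before the RefSeq site, at chr2:167537945-167538194, chr3:90603520-90603769 and chr3:90612644-90612881, written 5′ to 3′, with CACCTG in capitals.
Snai1: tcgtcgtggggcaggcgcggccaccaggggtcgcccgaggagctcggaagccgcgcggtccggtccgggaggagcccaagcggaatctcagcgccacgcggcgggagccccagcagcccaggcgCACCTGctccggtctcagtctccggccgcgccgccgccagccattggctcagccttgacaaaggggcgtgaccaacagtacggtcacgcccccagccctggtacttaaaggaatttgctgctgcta
S100a4: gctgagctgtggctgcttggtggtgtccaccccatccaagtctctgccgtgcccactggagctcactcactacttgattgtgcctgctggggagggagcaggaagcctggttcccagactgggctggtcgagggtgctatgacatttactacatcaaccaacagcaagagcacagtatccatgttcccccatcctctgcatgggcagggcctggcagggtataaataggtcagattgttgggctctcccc
S100a6: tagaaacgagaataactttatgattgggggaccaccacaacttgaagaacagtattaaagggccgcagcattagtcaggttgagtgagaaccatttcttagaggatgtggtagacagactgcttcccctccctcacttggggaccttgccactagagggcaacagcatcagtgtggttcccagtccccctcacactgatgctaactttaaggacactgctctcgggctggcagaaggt
The E-box of *Snai1* begins 126 bases before the start site. RefSeq promoters (250 bases before to 50 after a start site) were found for 6 of the 8 genes and searched on both strands for 3 motifs: CACCTG (the E-box of Snail and Zeb proteins), TGANTCA (AP-1, the Fos and Jun motif) and CCGGAA (the ETS motif). CACCTG stood in 1 of the 9 promoters of these 6 genes, that of *Snai1*, and in 20.2% of all 32851 promoters. TGANTCA stood in 1 of the 4 promoters of *Zeb2*, at 189 and 132 bases before the start site, and in 7.81% of all promoters. CCGGAA stood 106 bases before the start site of *Vim* and 36 bases after that of *Twist1*, and in 14.9% of all promoters. The promoters of *S100a4* and *S100a6* held none of the 3 motifs within their 300 bases.

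*Snai1* (ENSMUSG00000042821, GRCm38 chr2:167538195-167542814, plus strand, 3 exons) encodes Snail, the E-box repressor best known for silencing E-cadherin. It read 408, 324, 362 and 320.3 normalized counts in mutant replicates 1 to 4, and 181, 200.2, 210.1 and 144 in wild-type replicates 1 to 4. The lowest mutant library thus stood above the highest wild-type library. The means were 354 ± 40.8 and 184 ± 28.9, a 1.92-fold rise (log2 fold change 0.94, SE 0.14, edgeR adjusted p = 0.000526).

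*Snai2* (ENSMUSG00000022676, chr16:14705852-14709395, plus strand, 3 exons) encodes Slug, the nearest relative of Snail, which binds the same motif. Its counts were 104, 142, 158 and 86.2 in the mutant and 351, 395, 288 and 357 in the wild-type replicates. All 4 mutant libraries lay below all wild-type libraries, the reverse of *Snai1*. *Snai2* fell from 348 ± 44.3 to 122 ± 33.3, to a level 2.84-fold lower (log2 fold change -1.51, SE 0.20, edgeR adjusted p = 0.000194). In bulk libraries such as these, fewer cells of a type that uses a gene and less RNA of that gene per cell cannot be told apart. The summed oligodendrocyte and red blood cell markers, which fell for 6 of 6 and 5 of 5 genes, were lower in the same 4 libraries. Summed fibroblast markers were 1208 ± 141 CPM in the mutant and 1071 ± 125 in the wild type, and 3 of 7 genes rose and 2 fell. The part of any of these cells in the fall of *Snai2* was not tested.

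The balance of the Snail genes was compared within each library, where scaling between libraries has no effect. On the log2 scale the ratio of *Snai1* to *Snai2*, per kilobase of exon, was 2.30, 1.52, 1.52 and 2.22 in mutant replicates 1 to 4. In wild-type replicates 1 to 4 the same ratio was -0.63, -0.65, -0.13 and -0.98. *Snai2* was thus the more abundant Snail transcript in each wild-type library and *Snai1* in each mutant library. The mean log2 ratios were 1.89 ± 0.43 and -0.60 ± 0.35, and their difference of 2.49 gave p = 0.0286 (exact two-sided permutation test), the smallest possible for 4 against 4, or 0.0429 adjusted over the 3 ratios tested. Since each of the Snail genes already separated the groups, in opposite directions, the ratio had to do so. Its p-value is therefore no evidence beyond that of the single genes.

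**Figure D2:**
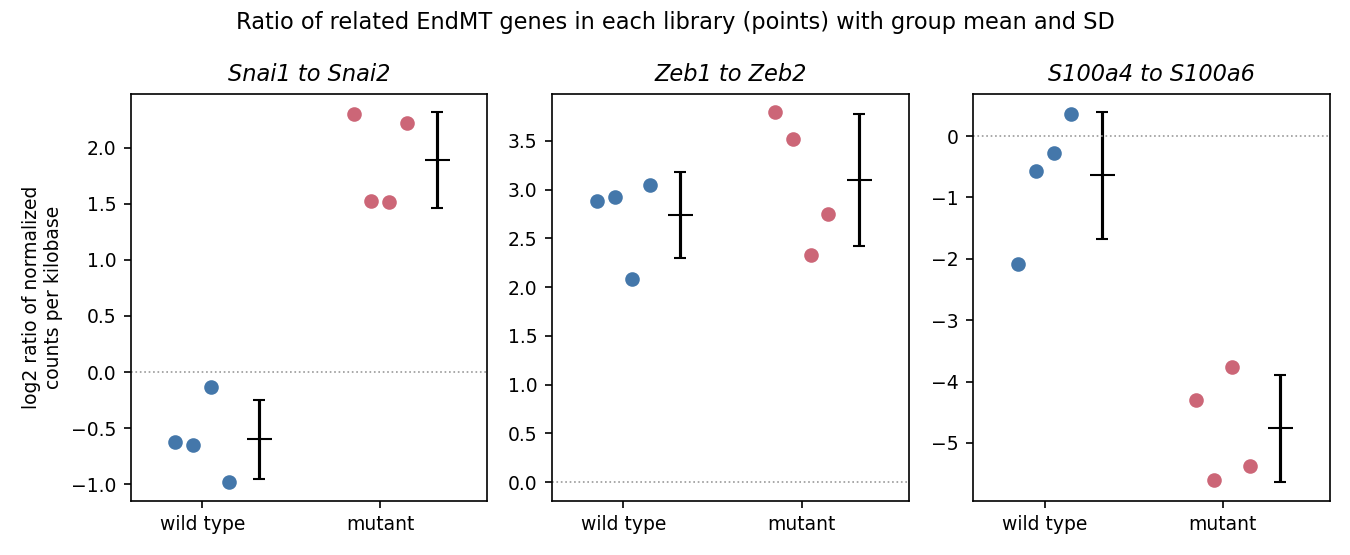
Log2 ratio of normalized counts per kilobase (y axis) of Snai1 to Snai2, Zeb1 to Zeb2 and S100a4 to S100a6 in each wild-type (blue) and mutant (red) library, with the group mean and SD (n = 4) and a dotted line at equal levels. The first and last ratios separate the groups, by 2.49 and -4.12, and the ratio of Zeb1 to Zeb2 overlaps between them.

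*Twist1* (ENSMUSG00000035799, chr12:33957671-33959817, plus strand, 2 exons), a basic helix-loop-helix factor of mesoderm and neural crest, was scarce. It gave 64.6, 50.9, 80.9 and 64.4 normalized counts in mutant and 48.8, 57.3, 67.4 and 41.1 in wild-type replicates. One mutant library lay above all wild-type libraries and the others among them. The means of 65.2 ± 12.3 and 53.7 ± 11.3 did not differ beyond their spread (log2 fold change 0.28, SE 0.22, edgeR adjusted p = 0.339), and with 39 to 78 reads per library a small difference was not detectable.

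*Zeb1* (ENSMUSG00000024238), a zinc-finger repressor that binds paired E-boxes, was the most abundant of the 5 transcription factors per kilobase of exon in both groups. Its normalized counts were 6361, 5842, 4959 and 5555 in mutant and 4154, 4301, 4360.1 and 5134 in wild-type replicates. Mutant replicates 1, 2 and 4 stood above all wild-type libraries, but wild-type replicate 4 stood above mutant replicate 3. *Zeb1* rose 1.27-fold, from 4487 ± 440 to 5679 ± 585 (log2 fold change 0.34, SE 0.09, edgeR adjusted p = 0.0145).

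*Zeb2* (ENSMUSG00000026872, chr2:44983632-45117395, minus strand), the paralog of *Zeb1*, is known as a regulator of nerve cell and neural crest development and is also used by microglia. It gave 904, 1008, 1944 and 1630.3 normalized counts in mutant and 1109, 1115, 2030.0 and 1225 in wild-type replicates. Mutant replicates 3 and 4 and wild-type replicate 3 were the high libraries, so the spread ran within both groups. The means were 1372 ± 498 and 1369.8 ± 443 (log2 fold change 0.00, SE 0.27, edgeR adjusted p = 0.994). The ratio of *Zeb1* to *Zeb2* did not separate the groups either, with mean log2 values of 3.10 ± 0.68 and 2.74 ± 0.44 (exact two-sided permutation test, p = 0.4).

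The same 3 libraries had the highest summed level of 7 microglia markers. The sums were 128, 166, 476 and 345 CPM in mutant and 178, 242, 558 and 153 CPM in wild-type replicates. The groups did not differ in this sum (log2 ratio -0.02, exact two-sided permutation test, p = 0.971), 0 of the 7 markers passed the test in either direction, and none was at 0 in every library. Without the 3 libraries *Zeb2* had a log2 fold change of -0.24 (edgeR adjusted p = 0.0875), a choice made after the data were seen. The part of microglia in the level of *Zeb2* was not tested.

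**Figure D3:**
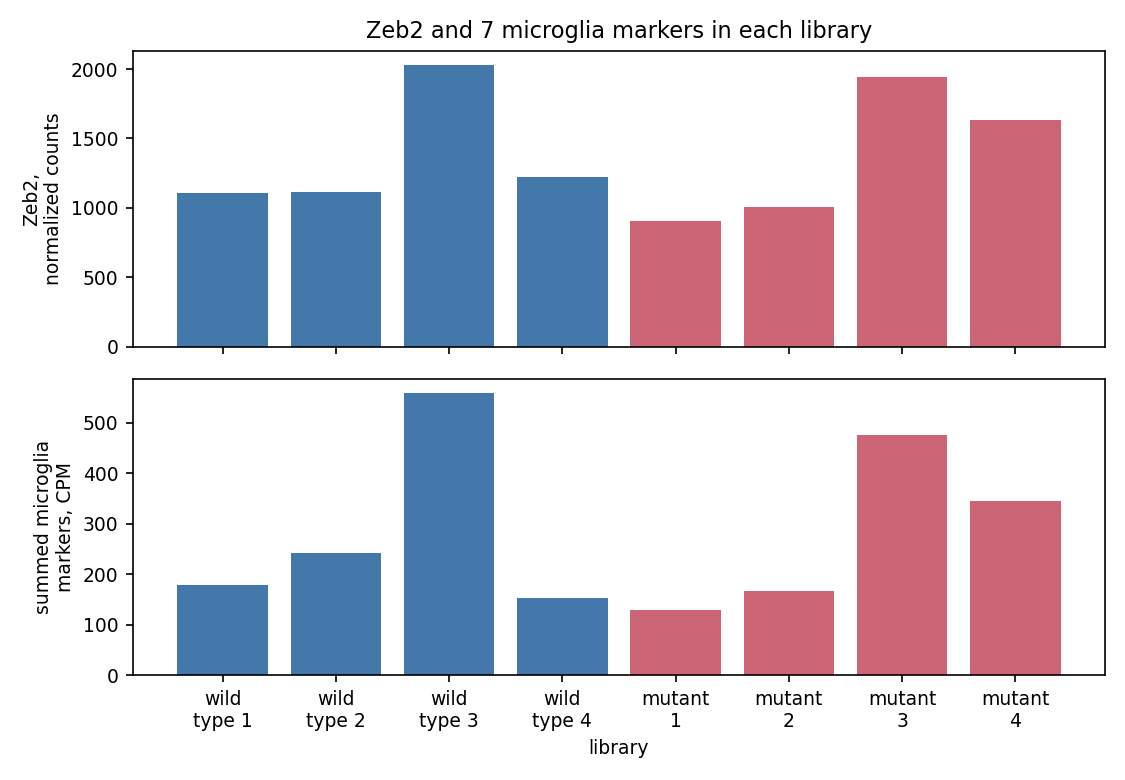
Zeb2 in normalized counts (upper bars) and the summed CPM of 7 microglia markers (lower bars) in each wild-type (blue) and mutant (red) library, both from 0. Wild-type replicate 3 and mutant replicates 3 and 4 are the 3 highest libraries in both panels.

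Partners of the E-box factors were described with 9 genes, of which 7 were tested. Of these, 4 fell and 1 rose, beside 22.9% and 21.5% of all genes tested, and the median log2 fold change was -0.63 beside -0.02 for all genes. The 4 that fell were *Id1*, *Id2*, *Id3* and *Id4*, whose proteins lack a DNA-binding domain and keep the E proteins off DNA. *Id4* fell from 279 ± 37.1 to 125 ± 51.5 normalized counts (log2 fold change -1.16, SE 0.26, edgeR adjusted p = 0.00454) and *Id2* from 1483 ± 84.3 to 761 ± 291 (log2 fold change -0.96, SE 0.21, edgeR adjusted p = 0.00374). The gene that rose was *Tcf4*, an E protein that pairs with *Twist1*, at 21267 ± 1351 against 13137 ± 1509.5 normalized counts (log2 fold change 0.70, edgeR adjusted p = 0.000236). The E protein genes *Tcf3* and *Tcf12* had log2 fold changes of 0.00 and -0.16 and did not pass, and the paralogs *Snai3* and *Twist2* had too few counts to test.

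Of 12 genes of corepressors that Snail and Zeb proteins recruit 3 rose and 2 fell, beside 21.5% and 22.9% of all genes tested. The median log2 fold change was 0.02. The histone deacetylase gene *Hdac1* rose by a log2 fold change of 0.26 (edgeR adjusted p = 0.0084) and the histone demethylase gene *Kdm1a* by 0.21 (edgeR adjusted p = 0.0488), a call that held in 7 of 17 alternative analyses. The deacetylase gene *Sirt1* fell, with a log2 fold change of -0.72 (edgeR adjusted p = 0.00399), and the C-terminal binding protein gene *Ctbp2* fell, with one of -0.24 (edgeR adjusted p = 0.0231, passing in 11 of 17 alternatives). Of 6 genes that control how long Snail protein lasts, 2 rose and 1 fell, beside the same shares of all genes. The ubiquitin ligase subunits *Fbxl5* and *Fbxo11*, which mark Snail for destruction, rose with log2 fold changes of 0.55 and 0.48, and the kinase *Lats2*, which stabilises it, fell with one of -0.44 (edgeR adjusted p = 0.000779, 0.00239 and 0.000579). The kinase gene *Gsk3b* and the ligase subunit gene *Btrc*, which act together on Snail, had log2 fold changes of 0.00 and 0.13 and did not pass.

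Epithelial genes that Snail and Zeb proteins are known to repress were mostly at low levels. Of 17 such genes 11 were tested, 4 fell and 1 rose, beside 22.9% and 21.5% of all genes tested, and the median log2 fold change was -0.49. *Dsp* (desmoplakin, a desmosome protein) fell from 415 ± 78.5 to 227 ± 38.8 normalized counts, with a log2 fold change of -0.87, and *Esrp2*, an epithelial splicing regulator, fell from 99.5 ± 8.80 to 47.0 ± 18.1, with one of -1.08 (edgeR adjusted p = 0.00215 and 0.00891). The other 2 that fell, named after their values were seen, were *Ocln* (occludin, a tight-junction protein of the blood-brain barrier) with a log2 fold change of -0.62 and *Cdh1* with one of -1.92. *Cdh1* stood at 11.6 ± 5.69 against 45.1 ± 19.1 normalized counts, so the ratio rests on few reads. *Cldn4*, a claudin named in the same way, rose from 13.8 ± 3.80 to 43.9 ± 24.7 (log2 fold change 1.68, edgeR adjusted p = 0.00785).

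*Vim* (ENSMUSG00000026728, chr2:13573927-13582826, plus strand) was the most abundant of the 8 genes in both groups. Its normalized counts were 117996, 98855, 98030.1 and 118123 in mutant and 50506, 49429.9, 46864 and 53433 in wild-type replicates. Each mutant library held more than any wild-type library, and the wild-type libraries were close to each other. *Vim* rose 2.16-fold, from 50058 ± 2720 to 108251 ± 11331 (log2 fold change 1.11, SE 0.09, edgeR adjusted p = 1.53e-05). Per kilobase of exon it ranked 79 of the 16887 genes in the wild-type and 22 in the mutant libraries. Cells other than ECs also make vimentin. Summed markers of fibroblasts were 1208 ± 141 against 1071 ± 125 CPM, of pericytes 897 ± 205 against 988 ± 271 CPM and of smooth muscle 148 ± 51.6 against 168 ± 56.1 CPM for mutant and wild type (exact two-sided permutation tests, p = 0.171, 0.629 and 0.629). The pericyte sum rested mostly on *Rgs5*, at 14896 against 20263 normalized counts. Of 8 pericyte markers *Abcc9* and *Kcnj8* rose (log2 fold changes 1.78 and 0.81) and none fell, and as a mean of log2 CPM the list differed by 0.36, against the direction of its sum. Of 7 fibroblast markers 3 rose and 2 fell, and of 6 smooth muscle markers 1 rose. Summed astrocyte markers were 679.5 ± 64.0 CPM in the mutant and 407 ± 28.9 in the wild type (exact two-sided permutation test, p = 0.0286). That sum rested on *Gja1*, while 1 of the 6 astrocyte markers rose and 1 fell. As a mean of log2 CPM the astrocyte list differed by -0.32. The part of these cells in the rise of *Vim* was not tested.

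Other intermediate filament genes and their partners did not follow *Vim* as a group. Of 11 genes 2 rose and 2 fell, beside 21.5% and 22.9% of all genes tested, with a median log2 fold change of -0.05. *Lmna*, the gene of the A-type nuclear lamins, rose from 9025 ± 1957 to 19265 ± 4800.1 normalized counts (log2 fold change 1.09, edgeR adjusted p = 0.00112), and *Plec* (plectin, which links filaments to junctions) had a log2 fold change of 0.52 (edgeR adjusted p = 0.00349). *Nes* (nestin) and *Synm* (synemin), filament proteins that assemble together with vimentin, fell, with log2 fold changes of -0.71 and -0.50 (edgeR adjusted p = 0.0006 and 0.00964). *Nes*, a gene of growing vessels and of neural progenitors, stood at 9406 ± 1165 in the mutant against 15372 ± 1797 in the wild-type libraries.

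*S100a6* (ENSMUSG00000001025, chr3:90612882-90624181, plus strand) encodes calcyclin, which binds annexins and the Siah-interacting protein *Cacybp*. It gave 1518, 1266, 1130.3 and 2791 normalized counts in mutant and 100.4, 71.4, 70.9 and 69.6 in wild-type replicates. The groups were far apart, and mutant replicate 4 stood above the other mutant libraries. *S100a6* rose 21.5-fold, from 78.1 ± 14.9 to 1676 ± 760 (log2 fold change 4.42, SE 0.31, edgeR adjusted p = 4.98e-06), and its log2 fold change was at percentile 99.7 of all genes tested. Without mutant replicate 4 the log2 fold change was 4.08.

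*S100a4* (ENSMUSG00000001020, chr3:90603771-90606045, plus strand), the fibroblast marker also called FSP1, starts 9.11 kb before *S100a6*. Its normalized counts were 32.9, 11.1, 35.5 and 28.7 in mutant and 10.1, 20.7, 25.1 and 38.0 in wild-type replicates. Both groups covered the same range. The means of 27.0 ± 11.01 and 23.5 ± 11.5 did not differ beyond that spread (log2 fold change 0.21, SE 0.44, edgeR adjusted p = 0.722). The 10 to 36 reads per library limit this comparison, and 51.7% of the exon bases of *S100a4* also belong to *Gm42674*, a gene model on the same strand that was given 0 or 1 count per library. How reads shared between genes were treated is not given in the sources used here. The mean log2 ratio of *S100a4* to *S100a6* per kilobase was -4.76 ± 0.88 in the mutant and -0.64 ± 1.03 in the wild-type libraries, a difference of -4.12 (exact two-sided permutation test, p = 0.0286, adjusted 0.0429). This separation follows from that of *S100a6* and is no further evidence.

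S100 genes lie in a cluster on chromosome 3. Of 15 S100 genes other than *S100a4* and *S100a6*, on any chromosome, 9 were tested. Of these 3 rose and 1 fell, beside 21.5% and 22.9% of all genes tested, and their median log2 fold change was 0.08. *S100a10*, whose protein joins annexin A2 in a complex at the cell membrane, rose 8.76-fold from 218 ± 19.6 to 1907 ± 370 normalized counts (log2 fold change 3.13, SE 0.14, edgeR adjusted p = 3.89e-07). *S100a11*, a partner of annexin A1, rose 2.91-fold from 1157 ± 86.5 to 3370.3 ± 406 (log2 fold change 1.54, edgeR adjusted p = 2.51e-06). The third, named after its value was seen, was *S100a16*, with a log2 fold change of 0.99. The gene that fell, named in the same way, was *S100b*, a glial gene outside the cluster, at 19.3 ± 6.07 against 38.8 ± 8.35 normalized counts (log2 fold change -1.01, edgeR adjusted p = 0.0182), and the summed oligodendrocyte markers were lower in the same libraries. *S100a8* and *S100a9*, which start 56.1 and 79.8 kb after *S100a6*, had log2 fold changes of -0.36 and -0.51 and did not pass. *S100a16* starts before *S100a6*, closer to it than *S100a9*, and rose. *S100a11* and *S100a10* start 2908 and 2942 kb after it. *S100a5*, which lies between *S100a4* and *S100a6*, had 0 counts in every library.

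**Figure D4:**
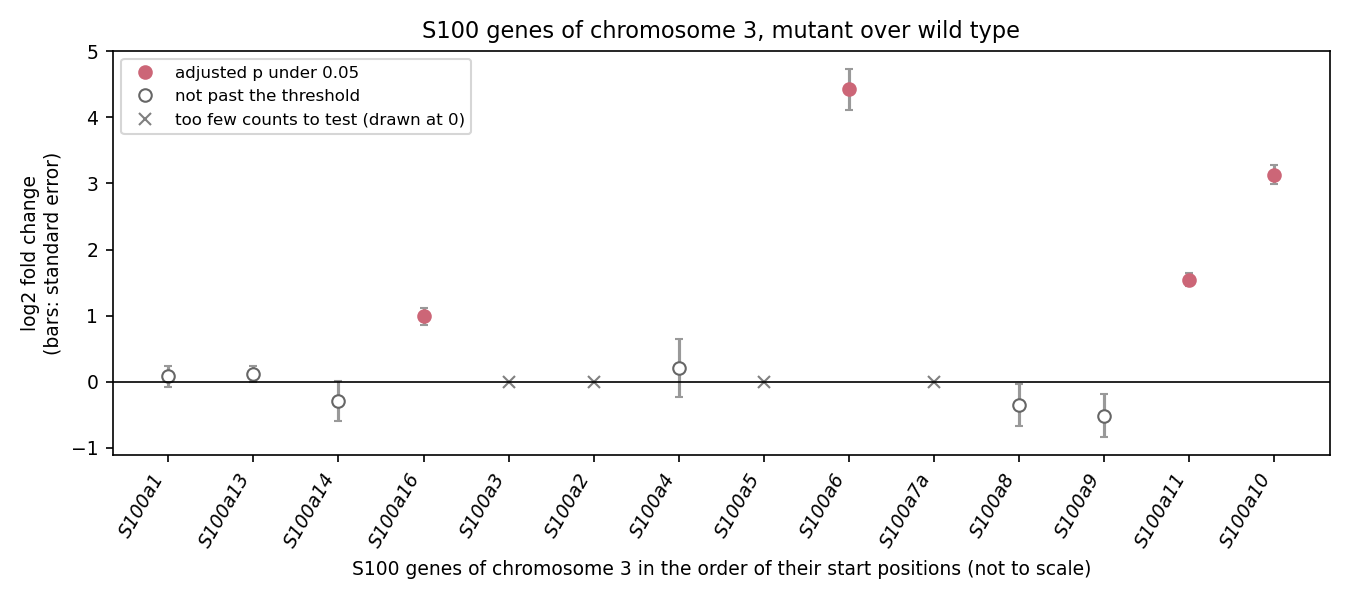
Log2 fold change (mutant over wild type, y axis, bars SE) of the S100 genes of chromosome 3 in the order of their start positions (x axis, not to scale), filled where the edgeR adjusted p was under 0.05 and crossed where counts were too few to test. S100a16, S100a6, S100a11 and S100a10 stand at 0.99, 4.42, 1.54 and 3.13, and the other tested genes lie between -0.51 and 0.21.

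Among 8 listed genes whose proteins bind S100 proteins, 5 rose and none fell, beside 21.5% and 22.9% of all genes tested. Their median log2 fold change was 0.56. The list was chosen with earlier results of these data known, so its counts do not stand for such genes in general. *Anxa1* (annexin A1, which binds phospholipid in the presence of calcium) rose from 495 ± 73.9 to 6905 ± 1034 normalized counts (log2 fold change 3.80, SE 0.14, edgeR adjusted p = 1.31e-07). *Anxa2* (annexin A2, the partner of *S100a10*) rose from 6054 ± 635 to 15377 ± 997 (log2 fold change 1.34, SE 0.09, edgeR adjusted p = 4.77e-06). *Cacybp*, named here because *S100a6* binds its protein, had a log2 fold change of 0.11 (SE 0.09, edgeR adjusted p = 0.339).

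TGF-beta signalling, the best known inducer of EndMT, was described with 16 genes, all of which were tested. Of these 5 rose and 4 fell, beside 21.5% and 22.9% of all genes tested, with a median log2 fold change of -0.04. *Tgfbi* rose from 259 ± 92.8 to 1589 ± 569 normalized counts (log2 fold change 2.61, edgeR adjusted p = 8.02e-05). *Tgfb2*, a ligand gene, fell from 2216 ± 159 to 763 ± 154 (log2 fold change -1.54, edgeR adjusted p = 2.03e-05), and *Ccn1*, a secreted matrix protein gene, from 17596 ± 2599 to 6570.0 ± 1759 (log2 fold change -1.42, edgeR adjusted p = 0.000212). The ligand genes thus moved apart, since *Tgfb1*, named after its value was seen, had a log2 fold change of 1.15, and none of the receptor genes *Tgfbr1*, *Tgfbr2* and *Tgfbr3* passed the test. *Smad7*, also named after its value was seen, fell with a log2 fold change of -1.18 (edgeR adjusted p = 0.000149).

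Of 26 other mesenchymal genes 10 rose and 3 fell, beside 21.5% and 22.9% of all genes tested, and their median log2 fold change was 0.25. With single libraries left out 7 to 9 rose and 3 fell, so some of the rises lay near the threshold. *Tnc* (tenascin C, a matrix glycoprotein of tissue remodelling) rose from 1473 ± 164 to 10713 ± 3011 normalized counts (log2 fold change 2.86, SE 0.18, edgeR adjusted p = 2.94e-06), and *Col5a1* (a fibrillar collagen) had a log2 fold change of 0.82 (edgeR adjusted p = 0.000565). *Pdgfra*, a receptor of fibroblasts and of oligodendrocyte progenitors, fell from 454 ± 106 to 222 ± 10.3 (log2 fold change -1.03, edgeR adjusted p = 0.000586), and *Fbn1* (fibrillin) had a log2 fold change of -0.58 (edgeR adjusted p = 0.000263). Some of the genes often used beside *Vim* to score EndMT were named after their values were seen. *Cdh2* (N-cadherin) and *Tagln*, a smooth muscle marker, rose with log2 fold changes of 0.62 and 0.73 (edgeR adjusted p = 0.00106 and 0.0367). *Fn1* (fibronectin) and *Acta2* (smooth muscle actin) had log2 fold changes of 0.12 and -0.40 and did not pass.

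Endothelial genes, which EndMT is known to lower, moved in both directions. Of 16 genes 5 rose and 4 fell, beside 21.5% and 22.9% of all genes tested, with a median log2 fold change of 0.12. *Vwf* (von Willebrand factor) rose from 78708 ± 7796 to 174907 ± 28563 normalized counts and *Cdh5* (VE-cadherin, whose promoter also drives the Cre transgene of the mutant pups) from 36246 ± 2568 to 78095 ± 12581, with log2 fold changes of 1.15 and 1.11 (edgeR adjusted p = 7.42e-05 and 6.04e-05). *Kdr* (a receptor of vascular endothelial growth factor) and *Cldn5* (the claudin of the blood-brain barrier) fell, with log2 fold changes of -0.59 and -0.47 (edgeR adjusted p = 0.00177 and 0.0097). *Pecam1*, the gene of CD31, the protein the beads bind, was named after its value was seen and rose with a log2 fold change of 0.53 (edgeR adjusted p = 0.00196).

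**Figure D5:**
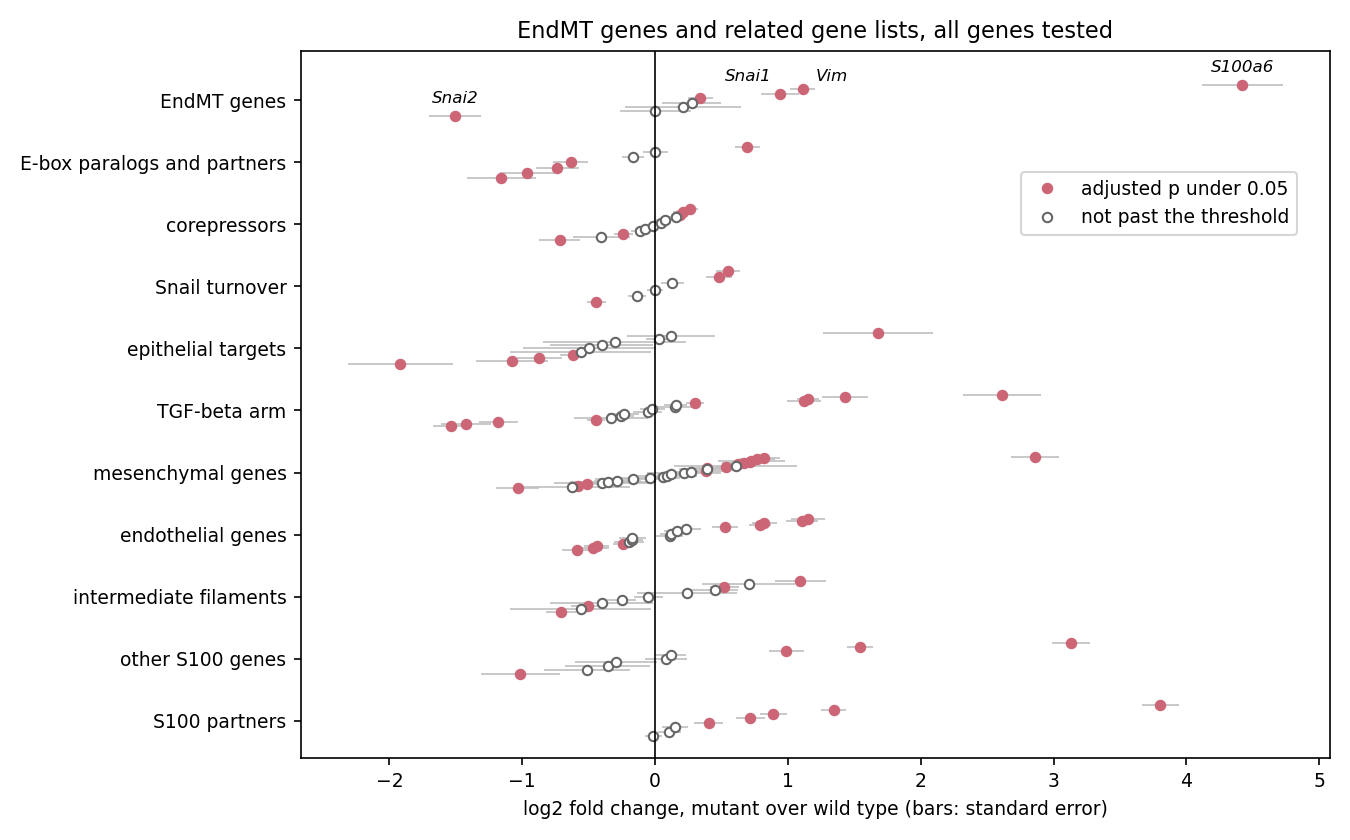
Log2 fold change (mutant over wild type, x axis, bars SE) of the 8 EndMT genes and of each tested gene of 10 related lists (rows), filled where the edgeR adjusted p was under 0.05. The EndMT genes run from -1.51 to 4.42, and the corepressors stay between -0.72 and 0.26.

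Per kilobase of exon, the order of the 8 genes by mean normalized count differed between the groups. In the mutant it ran *Vim* (22823), *S100a6* (1226), *Zeb1* (562), *Snai1* (218), *Zeb2* (68.8), *Snai2* (60.3), *S100a4* (46.3) and *Twist1* (40.3). Each of the first 4 stood apart from its next lower neighbour in all libraries, whereas the last 4 overlapped with their neighbours. In the wild-type libraries it ran *Vim* (10554), *Zeb1* (444), *Snai2* (171), *Snai1* (114), *Zeb2* (68.7), *S100a6* (57.1), *S100a4* (40.2) and *Twist1* (33.2). Here neighbours overlapped from *Snai1* downward. *S100a6* thus stood next to *Zeb2* and *S100a4* in the wild-type libraries and second to *Vim* in the mutant.

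The first digits of the sample labels divide the pups into 3 sets, each with both groups, and what these digits stand for is not given. Within the set of replicates 1 and 2, replicate 3 alone and replicate 4 alone, the log2 ratios of *S100a6* were 4.02, 3.99 and 5.33, and those of *Vim* 1.12, 1.06 and 1.14. *Snai1* gave 0.94, 0.79 and 1.15, and *Snai2* gave -1.60, -0.86 and -2.05. These 4 genes kept their direction in each set. *Zeb1* was 0.53, 0.19 and 0.11, with the largest difference in replicates 1 and 2, and *Twist1* was 0.12, 0.26 and 0.65. *Zeb2* (-0.22, -0.06 and 0.41) and *S100a4* (0.51, 0.50 and -0.40) changed sign between sets.

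The genes whose profile over the 8 libraries was most like that of each EndMT gene were found among 11399 other genes (11400 for *Twist1* and *S100a4*), as the least root mean square distance between centred log2 CPM profiles. For *Vim* they were *Ext1* (0.06) and *Tmc6* (0.06), for *Snai1* *Nt5dc2* (0.09) and *Arhgap10* (0.10), and for *Snai2* *Prom1* (0.05) and *Shroom1* (0.10). For *S100a6* they were *Itgb3* (0.30), an integrin gene that rose from 304 to 7505 normalized counts on average, and *Fam167b* (0.36). *Zeb1* was nearest to *Dcaf10* (0.03) and *Pla2g12a* (0.04), *Twist1* to *Unc93b1* (0.10) and *Prkar1b* (0.11), and *Zeb2* to *Dpp7* (0.07) and *Gpd1* (0.12). *Acta1*, the skeletal muscle actin gene, lay at 0.35 from *S100a4*. *Unc93b1*, *Prkar1b*, *Dpp7*, *Gpd1* and *Acta1* did not pass the test between the groups. All these profiles share the same 8 libraries, their depth and their group difference.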

How the data were processed

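Per the labels and the study's methods, adapters and poor bases were removed by Trimmomatic 0.36, STAR 2.5.2b placed the reads on GRCm38, and the authors deposited raw counts per gene for each of 8 libraries. The counting program, annotation release, strand setting and treatment of reads shared between genes are not given in the sources used here, so genes that overlap on opposite strands, such as *Zeb2* and *Zeb2os* or *Zeb1* and *Gm10125*, are uncertain. The authors also deposited a normalized signal for 16889 genes, the counts divided by 1 DESeq2 size factor per library, from which whole reads were recovered for 100% of nonzero values (tolerance 0.001).

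Groups and replicate numbers came from the sample titles. Of 49315 identifiers 48970 matched a symbol. The fit on counts was edgeR 4.0.16 under R 4.3.3 (TMM, filterByExpr with a minimum count of 10, glmQLFit and glmQLFTest, no covariate, Benjamini-Hochberg over 16887 genes, calls at adjusted p under 0.05). The log2 fold changes, SEs and adjusted p-values are from this fit. Single values were compared with exact two-sided permutation tests (SciPy 1.17.1, Python 3.11.15). DESeq2 1.42.0 served as an alternative. Motifs were searched in RefSeq promoters. Members and lists were chosen with earlier results of these data known. Named from each list were up to 2 called genes with the largest rise and 2 with the largest fall if their higher group averaged 50 normalized counts or more. Genes most like a member were sought among those that averaged 100 normalized counts or more, with a prior count of 2 for log2 CPM. Some genes that these rules chose are not reported here.

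Libraries of a group differed by more than sampling noise (chi-square per degree of freedom 7.30 to 41.6), so none was a copy of another. Each library is labelled as a separate sample of 1 pup, and p-values measure the spread between these libraries. On simulated data for the comparison of mutant and wild type over 16887 genes, 23 of 67 genes changed by a log2 fold of 0.5 were called, 55 of 67 changed by 1 and 66 of 66 changed by 2, with 12 unchanged genes called. The simulation changed a far smaller share of genes than was called in the data, and only genes above a minimum mean read count. Its rates therefore need not hold for this comparison, or for scarce genes such as *S100a4*. Alternatives were other normalizations, other filters, DESeq2, a fold limit, blocks for replicate number and label prefix, and each library left out.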

Additional observations from a re-analysis of the deposited data

Results flagged for a closer look

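In groups of 4 libraries, a library was taken as standing apart when its gap to the nearest other, divided by the range of the group, was above Dixon's critical value for 95% confidence. Of 46 groups of values tested 3 met this limit, and chance alone gives about 1 in 20.

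*Zeb2* in wild-type replicate 3, at 2030.0 normalized counts, stood above the other wild-type libraries, which held 1109 to 1225 (ratio of gap to range 0.874). In the same library the log2 ratio of *Zeb1* to *Zeb2* per kilobase was 2.08, below the 2.89 to 3.05 of the other wild-type libraries (0.832). Wild-type replicate 3 also had the highest summed microglia markers of the 8 libraries, at 558 CPM, and the part of microglia in these values was not tested.

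*S100a6* in wild-type replicate 1, at 100.4 normalized counts, stood above the other wild-type libraries, which held 69.6 to 71.4 (0.941). Without this library the log2 fold change of *S100a6* was 4.59 and the gene stayed past the threshold.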

How the results depend on the processing

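Over 17 alternative analyses *Snai1* (log2 fold change 0.84 to 1.08), *Snai2* (-1.65 to -1.34), *Vim* (1.06 to 1.16), *S100a6* (4.08 to 4.59) and *Zeb1* (0.28 to 0.45, highest adjusted p = 0.0462) passed in edgeR or DESeq2 each time, and *Twist1* and *S100a4* (16 alternatives each, since their means lay under 100 counts) and *Zeb2* in none. *Zeb2* lay near 0 and changed sign with library totals only (-0.052), no filter (-0.0050), means of at least 100 counts (-0.013), the replicate block (-0.020), the label prefix block (-0.019), single libraries left out (-0.21 to 0.26), and the 3 libraries of highest microglia markers left out (-0.24). With those 3 left out, an alternative added after the data were seen, *S100a4* (-0.040) and *Gpd1* (-0.075) also changed sign. With single libraries left out *S100a4* ran from -0.022 to 0.53, *Dpp7* from -0.23 to 0.24 and *Gpd1* from -0.060 to 0.41. A 2-fold limit left 2 EndMT genes higher in place of 4, and lowered the lists to 0 higher and 1 lower E-box partners, 0 and 0 corepressors, 0 and 0 Snail turnover genes, 2 lower epithelial targets, 1 and 1 mesenchymal genes, 2 and 0 endothelial genes, 1 and 0 intermediate filament genes and 2 higher S100 partners. Over all genes it left 996 higher and 1360 lower. Corepressors had 1 higher gene with library totals only, 1 higher and 1 lower without a filter and 1 lower without the 3 libraries, and with single libraries left out 1 to 4 higher and 1 to 2 lower. Snail turnover had 2 lower genes with library totals only. Means of at least 100 counts left 0 higher and 2 lower epithelial targets and 0 lower other S100 genes, the latter also 0 without the 3 libraries and 0 to 1 with single libraries left out. As a mean of log2 CPM the difference in markers was 0.031 for endothelial, 0.36 for pericyte, -0.32 for astrocyte and 0.034 for microglia genes, against the sign of the sums. With single libraries left out, the log2 ratio of summed smooth muscle markers ran from -0.39 to 0.014 and of microglia markers from -0.41 to 0.55. The causes were not tested. The genes of the deposited normalized table, with reads recovered, gave 3644 higher and 3911 lower genes. Same-numbered libraries correlated at 0.20, 0.21, 0.29 and 0.02 after removing group means, so the numbers were not shown to pair them, mutant replicate 4 was closest to wild-type replicate 3, and the replicate block gave 3973 higher and 4189 lower genes (*S100a6* 4.33) and changed no call of the 8 genes. Pups were matched within litters, and the label prefix, which may or may not mark a litter, gave as a block 4182 higher and 4428 lower genes and changed no call of the 8 genes. Depth limits *Twist1* and *S100a4*.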
